A study of Rattus norvegicus with 2 samples.

Results

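The genes that prepare peptides for MHC class I were followed through a knockdown experiment in RMT-1 clone E4, a cell line of rat mammary tumour cells. The 7 genes were B2m, Tap1, Tap2, Tapbp, Psmb8, Psmb9 and Psmb10, chosen by name, and a probe belonged to one of them when its transcript identifier was a RefSeq transcript of that gene. All 7 had a probe on the array, 1 probe each, against 9026 named genes measured in the series as a whole. Total RNA came from cells transfected with a negative control siRNA or with an siRNA against Pla2g4c, a phospholipase gene of the cytosolic A2 family, and each was hybridised to 1 one-colour array. Both arrays therefore come from the same clonal line and both received an siRNA, and an untransfected culture was not analysed here. The dose, sequence and duration of the siRNA treatment are not given in the sources used here. With 1 array per group there is no replicate check and no test.

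MHC class I molecules show fragments of a cell's own proteins to CD8 T cells. Proteasomes cut the proteins, and under inflammatory signals the catalytic subunits encoded by Psmb8, Psmb9 and Psmb10 replace the constitutive Psmb5, Psmb6 and Psmb7 to form the immunoproteasome. The peptides enter the endoplasmic reticulum through the transporter made of Tap1 and Tap2, tapasin (Tapbp) holds the transporter next to an empty class I molecule, and the heavy chain folds with beta-2-microglobulin (B2m) around the peptide. In most tissues these genes are induced by interferons, and several also respond to NF-kB.

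Of the 7 genes, 6 lay close to the same scaled level on both arrays and Psmb8 stood apart, brighter on the Pla2g4c siRNA array. The 6 measured genes had a median difference of 0.04 on the log2 scale, where the median of all 9026 genes was -0.01. Values are log2 of the scanner software's processed signal after each array was set to its 75th percentile, so 0 is that percentile, and a difference is always Pla2g4c siRNA minus control. The ± after a difference combines the errors that the software estimated for the signals, and holds no variation between cultures or arrays. Bright genes with 1 probe all sat near 0.20, and the median over all measured genes was 0.20. It therefore serves as a near-fixed width and is not the scatter of the spots, whose median gap was 0.07 on each array. A gene counted as measured where every spot of its probe was well above background on both arrays. None of the 6 measured genes reached 2-fold in either direction, against 5.96% of all measured genes, 2.91% higher and 3.05% lower. The largest fold among them was 1.22. Since these are bulk samples, a difference in the share of cells that express a gene and a difference in RNA per cell cannot be told apart.

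B2m, the light chain shared by all classical class I molecules, had a level of 5.34 on the control array against 5.26 on the Pla2g4c siRNA array. Its spots read 5.34 and 5.34 on the control array and 5.23 and 5.30 on the other, so the spots did not overlap. The difference was -0.08 ± 0.20, a fold of 1.05. B2m was among the tenth of genes with the highest signal, whose 903 members had a median difference of -0.14. Quantile normalization gave B2m a difference of 0.28, and cyclic loess one of 0.20.

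The transporter genes differed little. Tap1 stood at -1.02 on the control array against -0.88 on the Pla2g4c siRNA array, a difference of 0.14 ± 0.20. Its control spots read -0.89 and -1.15 and those of the other array -0.86 and -0.90, so the ranges overlapped. The gap of 0.25 between the control spots was the largest within an array for any of the 6 measured genes and exceeded the difference itself. Tap2, the partner subunit, went from 1.74 to 1.85, a difference of 0.11 ± 0.20. Its spots were 1.81 and 1.67 on the control array and 1.88 and 1.82 on the Pla2g4c siRNA array, without overlap.

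Tapbp, the tapasin gene, had the lowest difference of the 7. Its level was 0.63 on the control array against 0.35 on the Pla2g4c siRNA array, with control spots at 0.61 and 0.65 and the others at 0.32 and 0.38. All spots on the Pla2g4c siRNA array were the lower ones, and the difference was -0.28 ± 0.20, a fold of 1.22. Of all measured genes 24.0% had a lower difference than Tapbp, and 53.9% lay at least as close to 0, so its place in the array-wide spread was ordinary.

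Among the immunoproteasome subunits, Psmb9 and Psmb10 lay near 0. Psmb9, which takes the place of Psmb6, read 3.17 on the control array against 3.15 on the Pla2g4c siRNA array, a difference of -0.03 ± 0.20, with overlapping spots (3.15 and 3.20 against 3.13 and 3.16). Psmb10, which replaces Psmb7, read 1.74 and 1.95, a difference of 0.21 ± 0.20 and the highest of the 6 measured genes. Its control spots agreed at 1.74 and both spots of the other array, at 1.91 and 1.999, lay above them. Of all measured genes 72.2% had a lower difference than Psmb10.

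Across the 6 measured genes, 3 differences were above 0 and 3 below, 4 lay within 1 software error of 0, and all 6 within 2. As that error was 0.20 for each of the 6, these counts only set the differences against a near-fixed width. Intervals of 2 errors ran at the widest from -0.69 for Tapbp to 0.62 for Psmb10. For 4 of the 6 the spots of the arrays did not overlap, where the same held for 80.4% of 7247 measured probes with 2 spots per array. Spots that do not overlap are thus common between these arrays and not a mark of the class I genes. No spot of the 7 genes was flagged as an outlier or saturated.

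**Figure D1:**
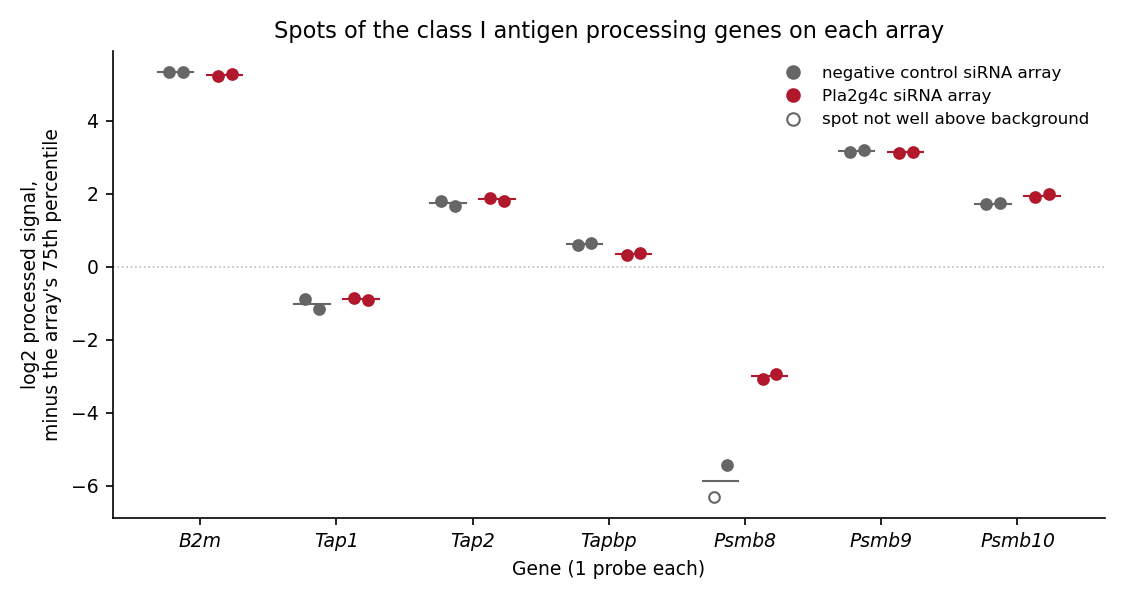
Log2 processed signal relative to the 75th percentile of the array (vertical axis) for the 2 spots of each gene on the negative control array (grey) and the Pla2g4c siRNA array (red), with short lines at the mean of the spots; an open point is a spot not well above background. In 6 genes the arrays lie within 0.28 of each other, while the Psmb8 spots lie near -5.86 on the control array against -2.996 on the Pla2g4c siRNA array.

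Psmb8, which encodes the chymotrypsin-like subunit of the immunoproteasome and replaces Psmb5, was dim on the control array. The control spots had processed signals of 10.9 and 19.9, of which only the second was well above background. With the Pla2g4c siRNA the spots had 132 and 145, and both passed that criterion. The median pixel brightness of the spots, before any subtraction, was 41 and 47 over a local background of 27 on the control array, and 138.5 and 162.5 over 25 on the Pla2g4c siRNA array. Both Pla2g4c siRNA spots were thus brighter than both control spots in the unprocessed readings too. That array was brighter as a whole, with a 75th percentile of processed signal of 1105 against 852. The same order of unprocessed readings held for B2m, whose scaled difference was -0.08.

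On the scaled log2 scale Psmb8 read -6.29 and -5.42 on the control array and -3.06 and -2.93 on the other, means of -5.86 and -2.996. The difference was 2.86 ± 0.38, a 7.27-fold higher signal. The pair of spots in which the control spot was well above background gave 5.63-fold (2.49 ± 0.29), and the other pair 9.39-fold. Because part of the control reading was at background, the size rests on how background is removed, and under normexp correction, which draws dim signals together, the difference was 0.95, which is under 2-fold. The direction was the same under every processing alternative that gave Psmb8 a value. With the Pla2g4c siRNA but not with the control siRNA, 468 named probes were well above background in every spot. For their differences, control readings under -6.24, the lowest of any probe well above background there, were raised to that value. This makes such differences smaller, and the Psmb8 reading of -5.86 was not raised. Of these 468 probes 24.6% were then at least 2-fold higher, and 97.6% had a smaller value than Psmb8. Such probes had to be brighter on that array to be in this group, so this share describes them and supports nothing about Psmb8. It rests on 1 probe, and no second probe was there to check it.

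**Figure D2:**
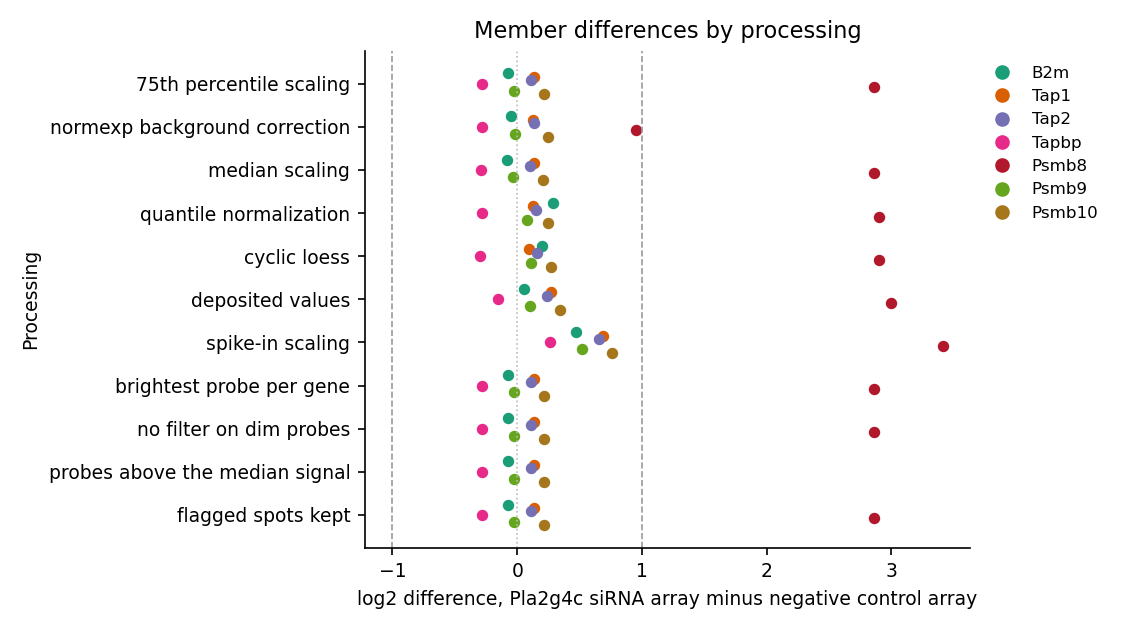
Log2 difference, Pla2g4c siRNA array minus negative control array (horizontal axis), of each class I processing gene (colours) under 11 ways of processing (rows), with dashed lines at 2-fold. Psmb8 lies apart from the other genes in every row that holds it, at 0.95 under normexp and 2.86 or more elsewhere, and spike-in scaling moves all genes to the right.

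The immunoproteasome subunits were also set against their constitutive counterparts. Psmb5 differed by -0.09 ± 0.20, Psmb6 by -0.01 ± 0.20 and Psmb7 by 0.17 ± 0.20. The difference of Psmb9 less that of Psmb6 was -0.02 ± 0.29, and that of Psmb10 less that of Psmb7 was 0.05 ± 0.29. No such contrast is given for Psmb8, whose control reading was partly at background. These are differences of differences within the same arrays, which a change in the scaling factor leaves as they are, and no probe's level is compared with another's. The maturation factor Pomp, which helps assemble immunoproteasomes, differed by -0.16 ± 0.20. The subunits of the PA28 activator caps, Psme1 and Psme2, which open the proteasome and favour class I peptides, differed by -0.27 ± 0.20 and 0.08 ± 0.20. Of the other activators and inhibitors, Psme3 differed by 0.46 ± 0.20, Psme4 by -0.16 ± 0.14 and Psmf1 by -0.01 ± 0.14, and none of these 6 genes reached 2-fold.

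The promoter windows of the 7 genes were read to see which letters they share. The windows come from RefSeq (build GRCr8), hold 250 bases before and 50 after the transcript start, and were found for all 7. Searched on both strands, the core of the interferon-stimulated response element bound by IRF factors (GAAA repeated after a gap of 2 bases) was in 6 of the 7 windows and in 3.92% of all 33469. A spelling of the kappa-B site (GGGA and TTTCC with 1 base between) was in 3 of 7, those of B2m, Tap1 and Tapbp, and in 0.36% of all windows. Both spellings were chosen from several after the matches were seen. A looser kappa-B spelling (GGG and TTCC with 3 bases between) was also in 3 of 7 but in 5.37% of all windows, and the interferon core with a C after it was in 0 of 7 and in 0.88% of all windows. The windows of Tap2, Psmb8 and Psmb10 held the first motif only, and that of Psmb9 held neither. The stretches below, 30 bases each, are written 5′ to 3′ on the strand of the gene with both motifs in capitals, on either strand, and are shown so that the window of Psmb8 can be set beside those of the genes that lay near 0. The 2 interferon motif matches of Tapbp, both within its first stretch, overlap each other by 4 letters, GAAA.
B2m, chr3:129549177-129549206, plus strand: catGAAACTGAAAatgGGAAAGTCCCtctg
Tap2, chr20:4652318-4652347, minus strand: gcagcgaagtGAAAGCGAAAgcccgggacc
Tapbp, chr20:4967881-4967910, minus strand: tttgaggGAAAATGAAAGTGAAAggaaaca
Tapbp, chr20:4967919-4967948, minus strand: gaccagcgcaGGGAATTTCCagttcctcac
Psmb10, chr19:50743346-50743375, minus strand: aagcaaaggcGAAAGTGAAAgagaagatgc
Psmb10, chr19:50743290-50743319, minus strand: agtggggggtGAAAGCGAAAgtaggaagcg
Psmb8, chr20:4657016-4657045, minus strand: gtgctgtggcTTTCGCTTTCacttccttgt

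Psmb8 carried the motif in reverse across its start, from base -4 to base 6, and the same 10 letters, GAAAGCGAAA, stood forward at -41 in Tap2 and at -17 in Psmb10. These 3 genes thus share an identical core. The difference of Psmb8 was 2.86, or 0.95 under normexp, on a control reading partly at background, and those of Tap2 and Psmb10 were 0.11 and 0.21. Whether the core bears on any of these differences was not tested. Tap1 and Psmb9 are transcribed away from each other, with 456 bases between their starts, and the 250 bases upstream of Tap1 are part of that shared stretch. They are shown whole because both genes had differences near 0 and because both motifs lie on the Tap1 side, the first at -121 and the kappa-B spelling at -55.
Tap1 upstream window, chr20:4668544-4668793, minus strand: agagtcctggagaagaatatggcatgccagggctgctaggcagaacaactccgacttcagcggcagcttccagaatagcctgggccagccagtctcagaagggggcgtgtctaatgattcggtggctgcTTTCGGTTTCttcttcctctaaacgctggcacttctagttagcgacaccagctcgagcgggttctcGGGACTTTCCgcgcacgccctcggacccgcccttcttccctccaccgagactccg

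The same letters were looked up across the measured genes. The 219 with the interferon motif in the window had a median difference of -0.07, of which 1.37% were at least 2-fold higher and 3.65% lower by as much, where all 7486 measured genes with a window had 2.74% and 2.99%. The 34 with the kappa-B spelling had a median of 0.01, with 5 (14.7%) at least 2-fold higher and 1 (2.94%) lower by as much. The looser kappa-B spelling was in 488 measured genes, of which 4.10% were at least 2-fold higher and 3.28% lower by as much, so the share depends on the spelling. A match is a run of letters, and binding was not measured here.

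Tap2, Psmb8, Tap1 and Psmb9 are neighbours within the MHC and lie in that order among class II genes, which present peptides taken up from outside the cell. In RefSeq order, 31 protein-coding genes run from the class II gene RT1-Da to Tapbp, a stretch chosen after its values were seen, and 23 of them were measured. On the side of Tap2, RT1-Da was 15.5-fold higher, RT1-Db1 4.56-fold (2.19 ± 0.21) and RT1-Bb 12.8-fold. The sizes depended on the processing: under normexp correction the folds were 5.84, 2.74 and 7.20, and with dim probes let in RT1-Bb was 2.77-fold and RT1-Db1 13.1-fold higher. On the side of Psmb9, RT1-DMb, a subunit of the class II peptide exchange factor, was 2.56-fold higher (1.35 ± 0.21) and its partner RT1-DMa 1.42-fold (0.51 ± 0.20). Between them Tap2, Tap1 and Psmb9 lay between -0.03 and 0.14. Psmb8, which lies between Tap2 and Tap1, had 2.86, or 0.95 under normexp, on a control reading partly at background. The 4 measured genes of the stretch at least 2-fold higher were all class II genes, and 0 were at least 2-fold lower. Of all measured genes 2.91% were higher and 3.05% lower by as much. Beyond RT1-DMa the measured genes ran from -0.87 (Rps18) to 0.80 (Col11a2). The class II genes RT1-Ba, RT1-DOb, RT1-DOa and RT1-Ha had a probe but were not measured. With dim probes let in they differed by -0.32, 2.90, -0.04 and -2.11. These readings were not well above background in every spot on both arrays, so their directions cannot be read. The measured class II genes of the stretch, RT1-Da, RT1-Db1, RT1-Bb, RT1-DMb and RT1-DMa, were all higher on the Pla2g4c siRNA array. They kept that sign under every alternative that measured them.

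**Figure D3:**
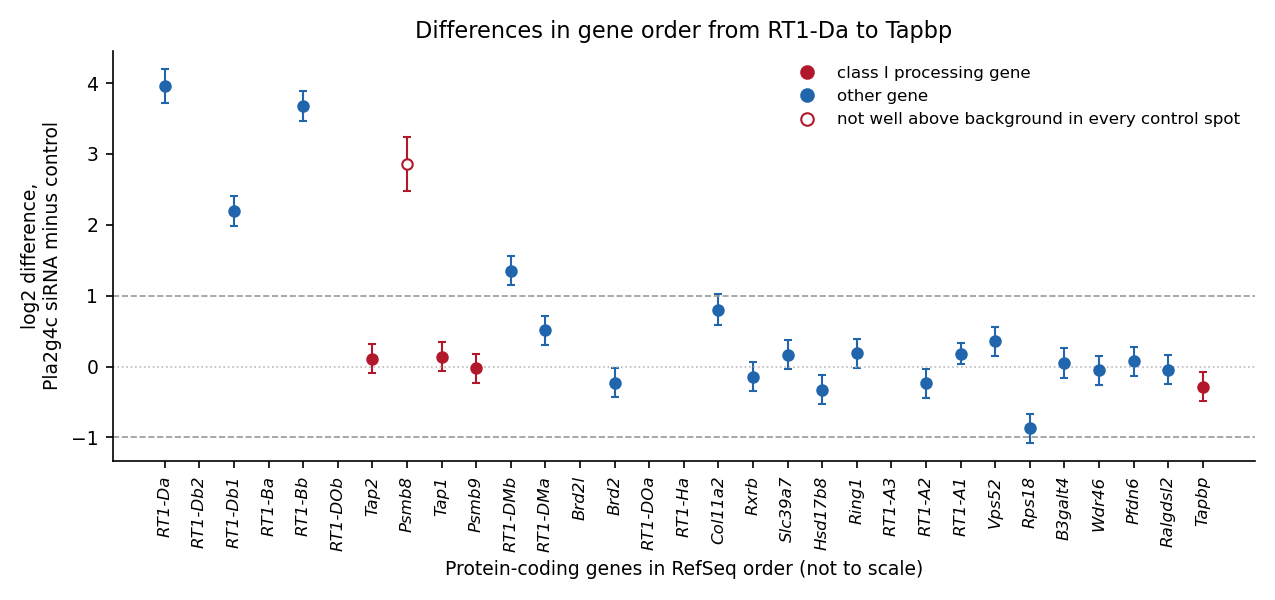
Log2 difference, Pla2g4c siRNA array minus negative control array (vertical axis), for the protein-coding genes from RT1-Da to Tapbp in RefSeq order (horizontal axis, not to scale), with bars of ± 1 software error and dashed lines at 2-fold. Red points are class I processing genes, blue points other genes, the open red point is Psmb8, and a gene without a point was not measured; the class II genes at the left reach 3.95 while Tap2, Tap1 and Psmb9 sit near 0.

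The class I heavy chains, which B2m joins, were listed by 41 symbols of the RT1 complex, of which 27 had a probe and 21 were measured. Their median difference was 0.09, with 14 above 0 and 7 below, of which 1 was at least 2-fold lower and 0 higher by as much. The classical genes RT1-A1 and RT1-A2 differed by 0.18 ± 0.14 and -0.23 ± 0.20. RT1-A1 is a mean of 2 probes, which gave 0.31 and 0.05, the brighter probe 0.05. The non-classical RT1-N3 had the lowest difference, from -0.10 on the control array to -1.20 on the Pla2g4c siRNA array (-1.10 ± 0.20, 2.14-fold lower), and RT1-N2 followed at -0.61 ± 0.20. RT1-M3-1, which presents formylated peptides, was highest, from 0.07 to 0.96 (0.89 ± 0.20), followed by RT1-S3 at 0.39 ± 0.20. RT1-N3 and RT1-M3-1 kept their signs under every alternative, with ranges of -1.14 to -0.55 and 0.87 to 1.44. RT1-N3 was under 2-fold with the deposited values (1.95-fold) and under spike-in scaling (1.47-fold). Some RT1 class I genes are close copies of each other and the cell line's own alleles may match a probe unevenly, so values of single RT1 genes are uncertain. In RT1-CE5 and RT1-S2 the 2 probes of the gene had opposite signs.

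The genes that load and trim class I peptides gave a median of -0.04 over 12 measured of 16 listed, and 0 reached 2-fold. The chaperones of the loading complex Pdia3 and Calr were lowest, at -0.39 ± 0.20 and -0.26 ± 0.20, and the cytosolic peptidases Tpp2 and Thop1 highest, at 0.47 ± 0.20 and 0.35 ± 0.20. The signs of Pdia3 and Calr turned under spike-in scaling, to 0.15 and 0.29. Other class I-like genes, which mostly fold with B2m or resemble class I chains, had a median of 0.47 over 5 measured of 9 listed, with 0 at 2-fold. Mr1, which presents vitamin metabolites, differed by 0.54 ± 0.27, Fcgrt, the neonatal Fc receptor, by 0.52 ± 0.20, Procr, the protein C receptor, by 0.47 ± 0.20, Hfe, a regulator of iron uptake, by 0.34 ± 0.24 and Raet1l, a stress ligand, by -0.78 ± 0.15. Several of these were dim, and the median was -0.03 under normexp correction.

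**Figure D4:**
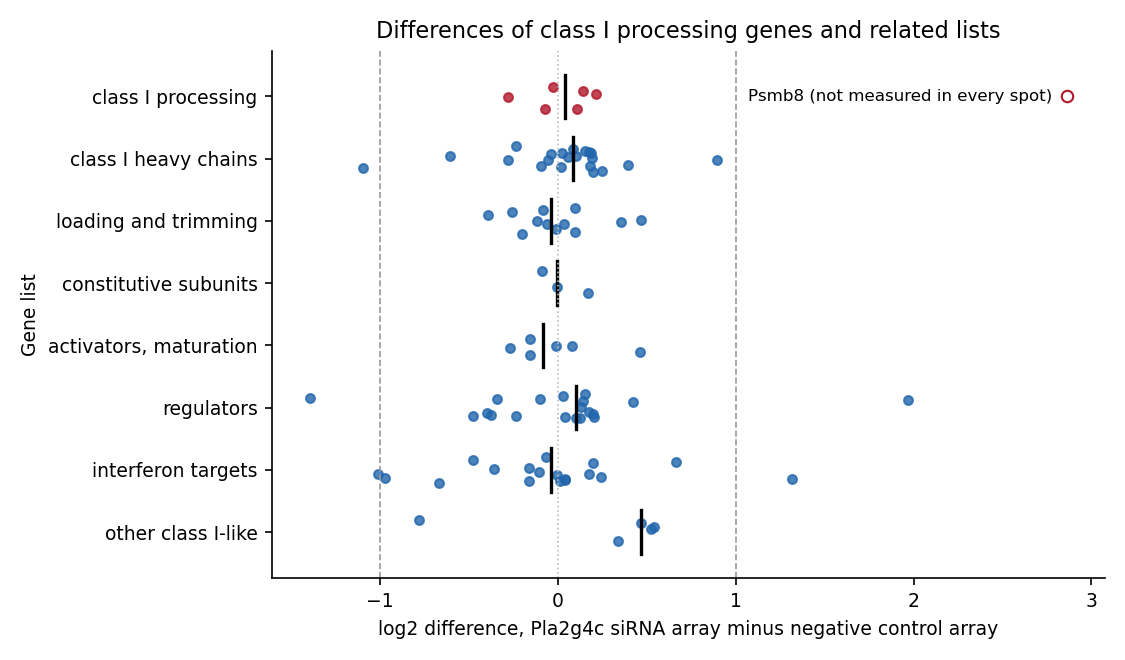
Log2 difference, Pla2g4c siRNA array minus negative control array (horizontal axis), for each measured gene of 8 lists (rows), with black bars at the list medians and dashed lines at 2-fold. The 6 measured class I processing genes (red) span -0.28 to 0.21, Psmb8 is the open red point, and the widest lists are the regulators, from -1.39 to 1.97, and the interferon targets.

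Among 24 listed regulators of class I genes, 19 were measured, with a median of 0.10, and these included 1 gene at least 2-fold higher and another at least 2-fold lower. The higher one was Ciita, best known as the master regulator of class II genes, which went from -4.53 to -2.56 (1.97 ± 0.23, 3.92-fold). Under normexp it was 1.93-fold, short of 2-fold. The lower one was Rfxank, a subunit of the RFX complex that binds class I and class II promoters, from -1.17 to -2.56 (-1.39 ± 0.21, 2.63-fold lower), and it was 1.80-fold lower under spike-in scaling. The partners of Rfxank in that complex, Rfxap and Rfx5, differed by 0.03 ± 0.21 and 0.21 ± 0.27. Creb1 was the next lowest at -0.48 ± 0.21, and Jak2, a kinase of interferon-gamma signalling, the next highest at 0.42 ± 0.20. Irf1, an interferon-induced activator of class I promoters, differed by 0.13 ± 0.14. These 3 genes (Rfxap, Rfx5 and Irf1) were named after their values were seen. Nlrc5, the class I counterpart of Ciita, could not be named on the array and was not analysed here.

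Other interferon targets gave no common direction. Of 29 listed, 18 were measured, with a median of -0.04, 8 above 0 and 10 below, among them 1 gene at least 2-fold higher and another at least 2-fold lower. The chemokine Cxcl10 was highest, from -1.10 to 0.22 (1.32 ± 0.20), and the antiviral enzyme Oas1a next at 0.66 ± 0.21. The guanylate-binding protein Gbp2 was lowest, from 0.90 to -0.11 (-1.01 ± 0.20), and the RNA-dependent kinase Eif2ak2 next at -0.97 ± 0.15. These 4 genes kept their signs under every alternative that measured them, but Gbp2 lay at the 2-fold threshold and was under it with normexp (-0.97), with the deposited values (-0.88) and under spike-in scaling (-0.47). Over the 7 related lists the medians lay between -0.08 and 0.47.

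The array-wide picture that these values stand on was as follows. Well above background were 61.9% of gene spots for the control siRNA and 63.1% for the Pla2g4c siRNA, and the arrays' 75th percentiles of processed signal were 852 and 1105. The 2 spots of a probe differed by a median of 0.07 on each array. No probe could be matched to Pla2g4c, so its level could not serve to check the labels and was not analysed here. Of 9 mammary epithelial markers 8 were measured, and Krt18 was not well above background on either array. Their summed scaled level (in units of the array's 75th percentile) was 738 on the control array against 318 on the Pla2g4c siRNA array, and their median difference was -0.47, or 0.08 under spike-in scaling. The sum rests mostly on Krt14, Krt5 and Krt17, which read 8.43, 7.54 and 7.44 on the control array, and says little about the other markers. The markers did not move together. The bright keratins Krt5, Krt17 and Krt14 differed by -1.72, -1.63 and -0.97, and Cdh1, Krt7 and Krt19 by -0.63, -0.31 and -0.30. In the other direction, Epcam and Krt8 differed by 1.03 and 0.86. Krt8 was dim, at -5.03 on the control array, and ranged from 0.11 to 1.41 over the ways of processing. Krt7 and Krt19 did not keep their signs in all of them. Of 18 leukocyte markers 14 had a probe and 5 were measured, with a summed scaled level of 0.98 and 0.82. On the control array Cd14 read -0.73, Cd68 -2.03, Cd3d -3.41, Lyz2 -5.67 and Csf1r -6.04. On the Pla2g4c siRNA array the same 5 read -0.99, -2.41, -3.69, -5.07 and -5.94. Another 8, among them Ptprc, Cd3e and Itgam, were on neither array well above background. Of 6 fibroblast markers 2 were measured, Col1a1 (0.13 ± 0.15) and Col1a2 (-0.26 ± 0.28), and of 6 endothelial markers 1, Cdh5 (-0.40 ± 0.23).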

How the data were processed

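The authors' scanner files give linear spot intensities. Per the file headers they come from Agilent Feature Extraction 10.10.1.1 (version 10.10 in the submitters' processing notes), which subtracted the background and removed spatial trends in each array but did not scale the arrays to each other. The background, outlier and saturation flags, other values of 0 or 1, were used as deposited by the authors. A further deposited intensity table equalled the processed signal times 1.77 (control) and 1.50 (Pla2g4c siRNA), constants that no source used here explains.

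Values were log2 processed signal scaled to each array's 75th percentile of gene spots. Spots with 466 and 381 outlier flags were left out, spots of a probe averaged, and measured probes of a gene averaged. Of 30367 gene probes 16840 were measured. RefSeq transcripts named 18006 (59.3%), and the array design (build rn4) and RefSeq (GRCr8) differ, so gene coordinates are not given. With 1 array per group and both on 1 slide and scan, no batch could be tested, and the precision is limited by the number of arrays.

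The members and lists were chosen with earlier results of these data known. Every member was named, and of each list all members where 6 or fewer were measured, otherwise the 2 highest and 2 lowest. Outside this rule, RT1-A1, RT1-A2, Rfxap, Rfx5, Irf1 and the remaining measured mammary markers were also named. So were RT1-CE5 and RT1-S2, whose probes disagreed, some markers not well above background, and genes of the MHC stretch. With 2 arrays no likeness of pattern can be ranked. Of the list symbols 3 were updated and 4 not resolved. The promoter windows were searched with 11 motif spellings, of which the 2 set in capitals were chosen after the matches were seen. Normexp (offset 50) used median spot signals, as the planned mean signals were not among the columns used here. Python 3.11.15 (numpy 2.4.6, pandas 2.3.3, matplotlib 3.10.9) and R 4.3.3 with limma 3.58.1 were used, and the steps were tested on simulated data.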

Additional observations from a re-analysis of the deposited data

How the results depend on the processing

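The 12 alternatives were normexp background correction, median scaling, quantile normalization, cyclic loess, the deposited values, spike-in scaling, letting dim probes in, keeping only probes above the median signal, taking each gene's brightest probe, keeping flagged spots, and thresholds of 1.5-fold and 3-fold. The median of the measured class I processing genes was 0.04 and moved by more than the software's error of 0.20 under spike-in scaling alone, to 0.59, where every difference gains 0.55 and the median of all genes was 0.54. Relative to all genes the median of the class I genes was 0.05 there, as in the values reported. The count of these genes at 2-fold was 0 except without the filter on dim probes, where Psmb8 entered and it was 1. No measured member changed sides of 2-fold under the scalings. Signs near 0 did turn: B2m ranged from -0.08 to 0.47, Psmb9 from -0.03 to 0.52 and Tapbp from -0.30 to 0.26, while Tap1, Tap2 and Psmb10 stayed above 0. Psmb8 was 0.95 under normexp, which put it under 2-fold, and between 2.86 and 3.41 otherwise.

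The counts of all genes at least 2-fold higher and lower, 263 and 275, were 116 and 154 under normexp, 1169 and 68 under spike-in scaling, 539 and 765 without the filter on dim probes and 79 and 119 for probes above the median signal. At 1.5-fold they were 784 and 929, and at 3-fold 85 and 65. The share of genes above 0 was 49.0%, against 62.8% with the deposited values and 88.5% under spike-in scaling. The causes were not tested. Leaving out a replicate was not possible with 1 array per group. No paired analysis was possible because each group has 1 array.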
